A study of Thermothelomyces thermophilus with 14 samples.

Results

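Xylobiose, the disaccharide of xylose that is released when xylan is cut, was compared with no carbon source in mycelium of Myceliophthora thermophila, a thermophilic filamentous fungus (wild type, strain ATCC 42464). The comparison rests on 4 of the 14 RNA sequencing libraries of the series, chosen by their sample names. Of these, 2 came from mycelium given 2% xylobiose (X2) and 2 from mycelium given no carbon (NoCarbon2). Pregrown mycelium had been moved into 5 mL of Vogel's salts in 24-well plates with round bottoms and was collected 4 h later. Plate groups with 2 libraries each were used to place the response: 2% cellobiose (G2), 1% glucose with 1% xylose (GX), and 2% cellobiose with 2% xylobiose (G2X2). All plate groups shared the strain, the pregrowth, the salts and the 4 h. The flask groups, with 2% xylan or with 1% xylan and 1% Avicel, entered the fit only to estimate the spread. Whether the libraries of a group stem from different cultures is not stated, and a p-value here covers only how far those libraries differ, which may be technical. Mycelium was sequenced in bulk, so a change in the share of some hyphae and a change within each hypha cannot be told apart. No markers of mycelium were tested.

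Xylan is a chain of xylose units in the plant cell wall. Fungi cut it outside the cell with xylanases, take up xylose and short xylose chains through membrane transporters, and convert xylose to xylulose phosphate inside the cell. In related fungi such as Neurospora crassa and Trichoderma reesei, soluble products of xylan act as signals that switch on the genes for these steps, while glucose tends to repress them. Cellulose is handled in the same way with cellulases, lytic polysaccharide monooxygenases (LPMOs, which cut chains by oxidation) and transporters of cellobiose and longer cellulose fragments. The reference table used here gives no product names. The names and enzyme classes given below to 26 loci follow published locus assignments as remembered, which that table neither gives nor contradicts. The weakest of these assignments is that of cdt-1 (Mycth_43941). Every other gene is described by its locus tag alone.

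The X2 libraries held 21389403 and 20190840 counts assigned to genes, and the NoCarbon2 libraries 21568864 and 21615250. Replicate libraries correlated across genes at r = 0.969 for X2 and 0.965 for NoCarbon2 on log2 counts scaled to library size, against 0.978 to 0.992 in the other groups. Both pairs differed by far more than sampling noise, with a chi-square of 157.3 per gene for X2 and 224.5 for NoCarbon2. In the other groups it was 20.63 to 99.22. Levels below are in CPM, a gene's reads relative to all reads of its library, with library sizes scaled by edgeR's trimmed mean of M-values (TMM). Changes are log2 fold changes ± standard error, and a gene was called when edgeR's quasi-likelihood test gave an adjusted p (Benjamini-Hochberg, over all genes tested) under 0.05.

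Xylobiose changed the transcriptome broadly. Of 8567 genes tested, 1640 were called higher (19.1%) and 1668 lower (19.5%), together 38.6% of the genes. The median change was 1.15 among the genes called higher and -1.13 among those called lower, beside -0.02 over all genes. TMM scaling centres the changes near 0, so that last median and the even split are partly set by it. Its factors were 0.8589 and 0.7331 for the X2 libraries and 1.131 and 1.188 for the NoCarbon2 libraries. Upper-quartile scaling gave 1534 higher and 1820 lower. A change of at least 1 on the log2 scale was reached by 1004 of the higher and 972 of the lower genes, one of at least 2 by 278 and 258, and one of at least 4 by 34 and 24. The smallest changes that were called were 0.42 and -0.44. The typical gene had a standard error of 0.26, and its 95% interval reached 0.56 to either side. The spread was estimated over all 7 groups, and X2 and NoCarbon2 had the most different replicates. Standard errors and intervals may therefore be too narrow for this comparison. Of the 5259 genes not called, 354 had an estimated change of at least 1 in size, so a change of that size was not always detectable with 2 libraries a group.

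The libraries of the groups did not overlap for 1634 of the 1640 genes called higher and for 1659 of the 1668 called lower. Among all tested genes, both X2 libraries lay above both NoCarbon2 libraries for 30.0% and below them for 32.4%. The number of calls depended on how the spread was estimated. Fitted to the X2 and NoCarbon2 libraries alone, 1506 genes were called, 788 higher and 718 lower, and 1500 of the calls were among the 3308 and in the same direction.

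Genes called higher were more frequent among abundant transcripts. With the genes cut into 5 classes of about equal size by their mean level over all libraries, 42.1% of the class at 123 CPM and above were called higher and 10.1% lower. In the class from 57.3 to 122 CPM, 18.7% were called higher and 20.5% lower. In the class from 8.36 to 28.6 CPM, 11.4% were called higher and 24.8% lower. Detection also varied with level, since the median standard error was 0.51 in the lowest class and 0.22 in the highest. The mean level includes the X2 and NoCarbon2 libraries, and most libraries had a carbon source. The classes are therefore not independent of the change. The genes called higher together took 30.5% and 28.3% of all counts in the NoCarbon2 libraries and 56.7% and 61.9% in the X2 libraries. The genes called lower went from 20.6% and 25.2% of counts to 6.91% and 5.54%. Both sets were picked on these same libraries, so the directions of these shifts largely follow from the calls. Counts are relative to a library's total, and whether total RNA per cell changed was not measured.

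**Figure D1:**
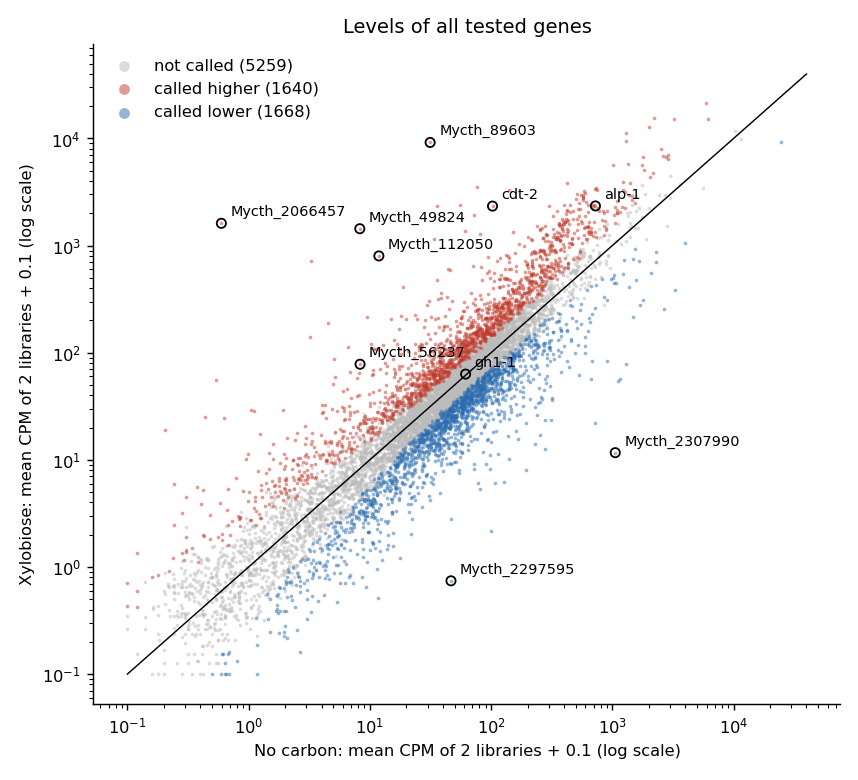
Mean level of each of 8567 tested genes with no carbon (horizontal axis) and with xylobiose (vertical axis), in CPM + 0.1 on log scales, with the line of equal level. Points are coloured by call, 1640 higher and 1668 lower, and the circled xylanase loci lie far above the line while gh1-1 lies on it.

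All 4 listed xylanase loci, whose enzymes cut the xylan backbone, rose with xylobiose, with a median of 6.77 on the log2 scale. Over all tested genes, 19.1% were called higher. The listed loci were chosen with earlier results of these data known, so counts and medians among them are a description and not a test. Mycth_89603 stood at 38.4 and 24.3 CPM in the NoCarbon2 libraries and at 5725 and 12640 CPM in the X2 libraries. Its counts alone made up 0.492% and 0.926% of the X2 libraries, against 0.00434% and 0.00288% without carbon. Mycth_49824 stood at 5.66 and 10.7 CPM without carbon and at 704 and 2172 CPM with xylobiose. Mycth_112050 went from 9.84 and 13.7 CPM to 410 and 1192 CPM. Mycth_56237 changed least, from 8.81 and 7.60 CPM to 49.8 and 106 CPM. For each of these loci the X2 libraries lay well above the NoCarbon2 libraries, and X2 replicate 2 was 2.13 to 3.09 times as high as replicate 1. Their log2 fold changes were 8.19 ± 0.57, 7.46 ± 0.60, 6.09 ± 0.48 and 3.25 ± 0.36 in that order (adjusted p at most 3.7e-05, edgeR). Each was called under every alternative run, and the values without X2 replicate 2 were 7.5, 6.42, 5.11 and 2.59.

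Of the 4 listed transporter loci, 2 were called higher and 0 lower, beside 19.1% and 19.5% of all tested genes. The transporter gene cdt-2 (Mycth_114107), whose Neurospora crassa relative carries cellobiose and also short xylose chains, stood at 127 and 78.7 CPM without carbon and at 1467 and 3208 CPM with xylobiose (4.51 ± 0.45, adjusted p = 1.94e-05, edgeR). The glucose transporter gene glt-1 (Mycth_108924) went from 14.5 and 6.16 CPM to 82.3 and 41.5 CPM (2.59 ± 0.58, adjusted p = 0.00434, edgeR). It was 1 of the listed loci whose X2 replicate 2 was the lower, at 0.504 times replicate 1. The arabinose transporter gene lat-1 (Mycth_95427) stood at 36.8 and 34.2 CPM without carbon and at 24.7 and 44.4 CPM with xylobiose, so the groups overlapped (95% interval of the change -0.89 to 0.80). The remaining transporter, cdt-1, had 41 and 55 reads without carbon and 7 and 30 with xylobiose. It was not called (-0.71), except as lower without X2 replicate 2 (-2.32, adjusted p = 0.0289). The intracellular beta-glucosidase gene gh1-1 (Mycth_115968), whose enzyme splits cellobiose, overlapped between the groups at 48.8 and 74.4 CPM against 46.0 and 80.2 CPM. Its interval ran from -0.61 to 0.68, which leaves out a change as large as the 2.75 seen for this gene with cellobiose.

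Genes for cellulose breakdown moved less. Of the 12 listed cellulase and LPMO loci, 5 were called higher and 0 lower, beside 19.1% and 19.5% of all tested genes. The median change of the 12 was 1.13, beside -0.02 over all genes. LPMO9B (Mycth_80312) changed most, from 6.02 and 6.97 CPM to 52.0 and 174.5 CPM (4.12 ± 0.53, adjusted p = 0.000134, edgeR). The endoglucanase gene eg-2 (Mycth_86753), whose enzyme cuts within cellulose chains, stood at 64.6 and 39.97 CPM without carbon and at 142 and 213 CPM with xylobiose (1.76 ± 0.32, adjusted p = 0.00118). A second endoglucanase gene, eg-1 (Mycth_111372), was low throughout, at 1.19 and 1.01 CPM against 3.43 and 12.1 CPM. Its change of 2.80 ± 0.57 was 1.63 without X2 replicate 2. LPMO9D (Mycth_92668) was called higher on 12 and 11 reads against 21 and 37 reads. LPMO9H (Mycth_46583) was called higher too, but its groups overlapped, with 59.05 and 22.7 CPM against 58.6 and 287.7 CPM. Neither of these LPMO calls held without X2 replicate 2 (changes of 1.29 and 0.51, adjusted p = 0.129 and 0.45, edgeR) or without NoCarbon2 replicate 2 (1.86 and 1.55, adjusted p = 0.0683 and 0.133). Fitted to the X2 and NoCarbon2 libraries alone, their adjusted p were 0.0866 and 0.0703.

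The cellobiohydrolase genes, whose enzymes release cellobiose from chain ends, overlapped between the groups. The gene cbh-1 (Mycth_109566) stood at 427 and 166 CPM without carbon and at 361 and 917 CPM with xylobiose, and cbh-2 (Mycth_66729) at 128 and 66.8 CPM against 88.2 and 238 CPM. Their changes of 1.11 ± 0.56 and 0.74 ± 0.44 were not called. The first was called without NoCarbon2 replicate 1 (1.95, adjusted p = 0.0465, edgeR). The second was called without X2 replicate 1 (1.23, adjusted p = 0.0389) and was -0.16 without X2 replicate 2. The other 5 loci not called were eg-45 (Mycth_76901), the cellobiose dehydrogenase gene cdh (Mycth_111388), LPMO9A (Mycth_85556), LPMO9E (Mycth_79765) and LPMO9J (Mycth_112089), with changes of -0.16 to 1.15. Of these, cdh was called higher without X2 replicate 1 (1.61, adjusted p = 0.0124, edgeR) and was -0.29 without X2 replicate 2. Without X2 replicate 2, LPMO9J was -0.20 and eg-45 -0.96, while eg-45 was 0.29 without X2 replicate 1.

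Among the 4 listed regulator genes, 0 were called higher and 1 lower, beside 19.1% and 19.5% of all tested genes. The gene clr-1 (Mycth_2298863), whose Neurospora crassa relative is needed for cellulase expression, was called lower, at 164 and 90.2 CPM against 53.2 and 80.1 CPM (-0.93 ± 0.28, adjusted p = 0.02, edgeR). That call was lost without NoCarbon2 replicate 1 (-0.44, adjusted p = 0.215), without X2 replicate 1 (-0.73, adjusted p = 0.102) or in a fit of the X2 and NoCarbon2 libraries alone (adjusted p = 0.101). The gene xyr-1 (Mycth_2310145), whose Trichoderma reesei relative activates xylanase and cellulase genes, stood at 57.9 and 40.4 CPM without carbon and at 34.0 and 33.0 CPM with xylobiose. Both X2 libraries were below both NoCarbon2 libraries, and the change of -0.56 was not called (95% interval -1.16 to 0.05). It was called lower in a fit of the plate libraries alone (-0.62, adjusted p = 0.0451, edgeR). The transcript of this regulator was thus not higher where the xylanase transcripts were. The gene clr-2 (Mycth_38704) overlapped between the groups at 9.34 and 10.5 CPM against 4.52 and 15.7 CPM, with a change of 0.01 that was -1.15 without X2 replicate 2. The carbon catabolite repressor gene cre-1 (Mycth_2310085) stood at 517 and 289 CPM against 668 and 583 CPM, a change of 0.64 ± 0.24 that missed the threshold (adjusted p = 0.0523, edgeR), or 1.11 and called without NoCarbon2 replicate 1 (adjusted p = 0.00218). The alkaline protease gene alp-1 (Mycth_2303011) rose from 993 and 458 CPM to 1983 and 2710 CPM (1.69 ± 0.32, adjusted p = 0.00156, edgeR).

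**Figure D2:**
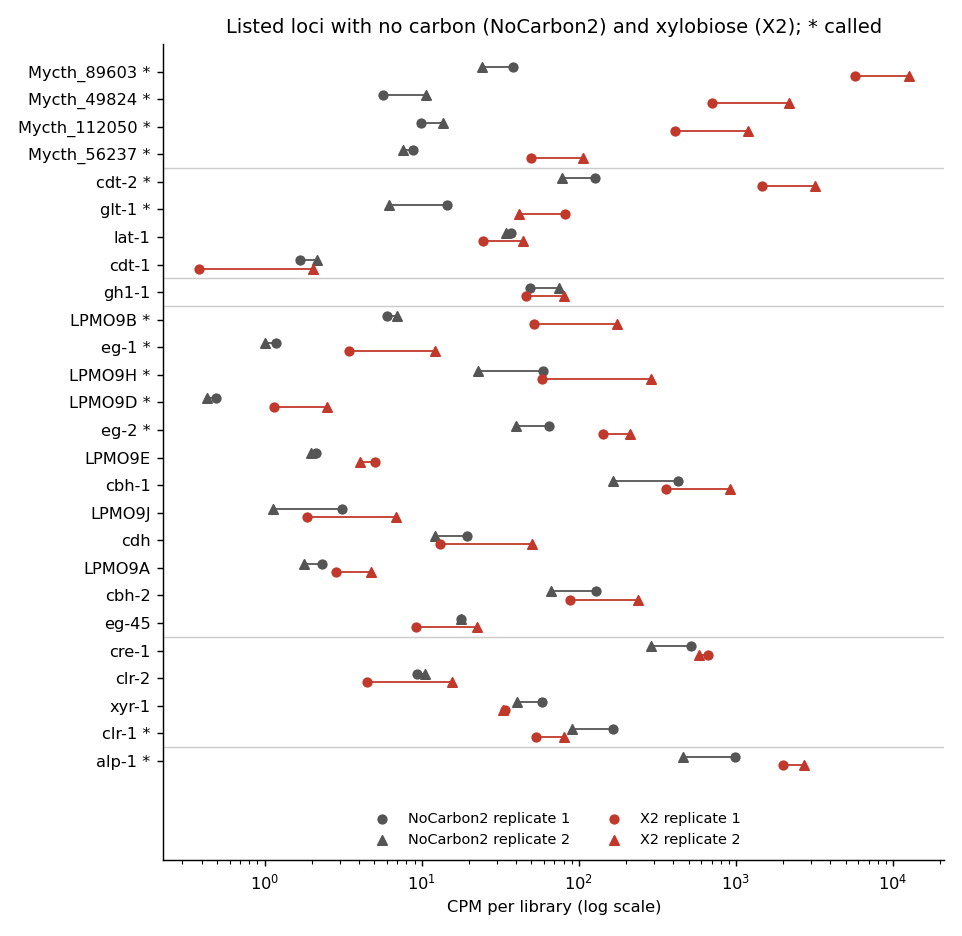
Levels of the 26 listed loci in each NoCarbon2 and X2 library, in CPM on a log scale, grouped from top to bottom as xylanase, transporter, beta-glucosidase, cellulase and LPMO, regulator and protease loci. Circles are replicate 1 and triangles replicate 2, a line joins the libraries of a group, and a star marks a called change; the xylanase loci and cdt-2 show a wide gap between the groups, whereas most cellulase loci overlap or lie close together.

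Changes of at least 6 on the log2 scale were called for 10 rises and 8 falls at any level, and for fewer among genes of higher level. Among genes with at least 20 CPM in the higher group and no overlap of libraries, 8 rose and 2 fell by at least 6 on the log2 scale, and 3 of the 8 were listed xylanase loci. Apart from Mycth_2066457, the other 4 rises were singled out after their values were seen. Mycth_2066457 went from 9 and 16 reads without carbon (0.369 and 0.623 CPM) to 16091 and 34852 reads with xylobiose (876 and 2355 CPM), a change of 11.65 ± 0.69. Mycth_96047 went from 3.36 and 2.999 CPM to 535.5 and 890 CPM and had the smallest adjusted p of the 5 (7.81 ± 0.37, adjusted p = 1.36e-07, edgeR). Mycth_49700 went from 0.492 and 0.390 CPM to 32.2 and 79.4 CPM, and Mycth_89872 from 0.328 and 0.351 CPM to 21.1 and 29.2 CPM. These genes were close to silent without carbon. Mycth_116553 began higher, at 38.5 and 32.7 CPM, and reached 1760 and 2900 CPM (6.03 ± 0.34). The calls of all 5 held under every alternative run, with changes never below 5.62.

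Within the same limits of level and overlap, Mycth_2307990 and Mycth_2297595 had the largest falls. Mycth_2307990 went from 650 and 1466 CPM to 9.63 and 13.5 CPM (-6.52 ± 0.57, adjusted p = 1.11e-05, edgeR). Mycth_2297595 went from 24.4 and 68.8 CPM to 0.272 and 1.01 CPM (-6.22 ± 0.68). The largest fall called at any level was -7.525. In both genes NoCarbon2 replicate 2 was the higher of its pair, and both NoCarbon2 libraries stood far above the X2 libraries.

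**Figure D3:**
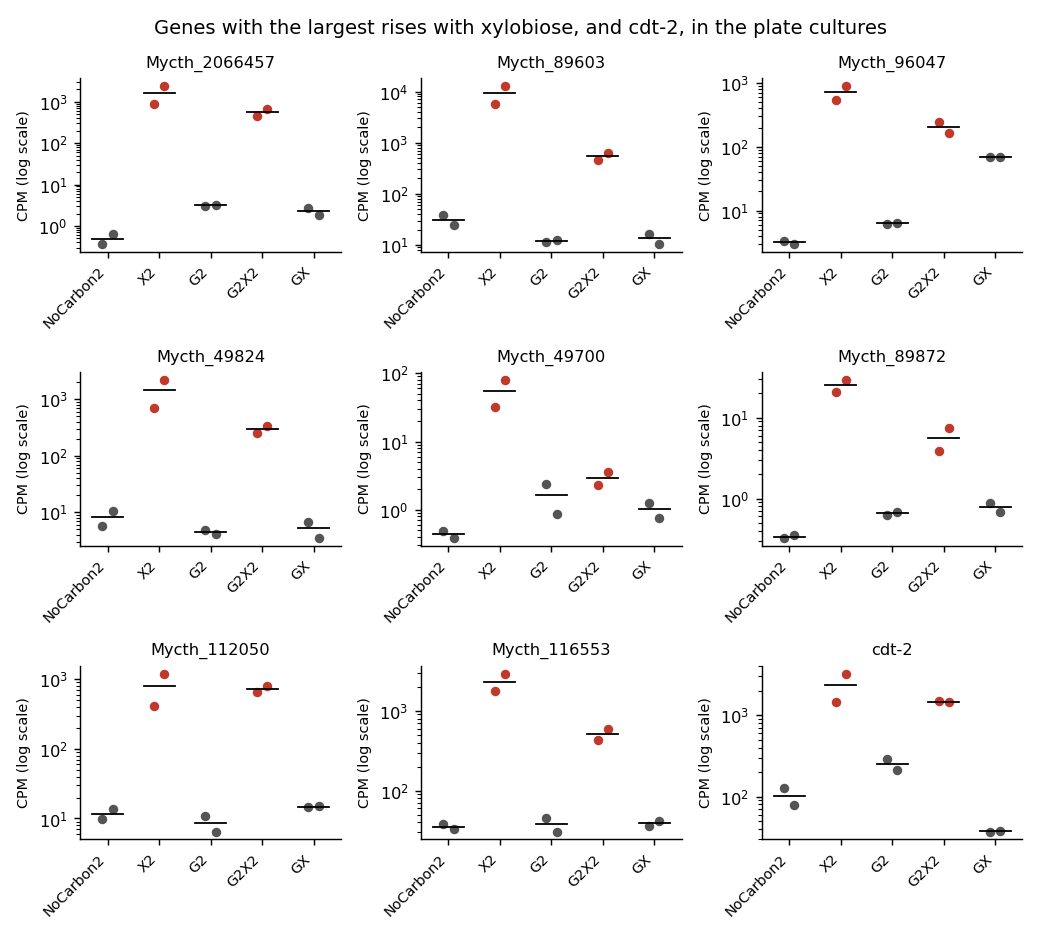
Levels in CPM (log scales, which differ between panels) of 8 genes that rose by at least 6 on the log2 scale, and of cdt-2, in the 5 plate groups. The 8 are those with at least 20 CPM in the higher group and no overlap of libraries. Points are libraries and lines are means of 2; groups that received xylobiose are red. With xylobiose alone each gene stood above the groups without xylobiose, and Mycth_49700 was low again when cellobiose was present as well.

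A different set of genes moved most by difference in mean CPM, a relative quantity that is not corrected for transcript length. The 5 largest gains in mean CPM were those of Mycth_2298136, Mycth_2311855, Mycth_2304231, Mycth_110532 and Mycth_112322, all already abundant without carbon. Mycth_2298136 went from 4939 and 6849 CPM to 15040 and 27640 CPM (1.86 ± 0.29) and made up 1.29% and 2.03% of all counts with xylobiose. Mycth_2311855 went from 2043 and 2342 CPM to 11180 and 20190 CPM (2.84 ± 0.27, adjusted p = 1.26e-05, edgeR). Mycth_112322 had the largest change of the 5 in fold, from 1383 and 1201 CPM to 9965 and 12360 CPM (3.11 ± 0.36). Mycth_110532 rose by 2.66 ± 0.43 and Mycth_2304231 by 2.23 ± 0.38, the latter at 7731 CPM in X2 replicate 1 and 22680 CPM in replicate 2, or by 1.25 without replicate 2. All 5 had both X2 libraries above both NoCarbon2 libraries.

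Among the 5 largest losses, Mycth_2314451 took 1.95% and 3.8% of all counts without carbon and 0.771% and 0.703% with xylobiose. Its change of -1.41 ± 0.30 was -0.895 without NoCarbon2 replicate 2. Mycth_61507 fell from 3102 and 3439 CPM to 406 and 366 CPM (-3.08 ± 0.20, adjusted p = 1.19e-06, edgeR), with close agreement between replicates. Mycth_2313040 fell from 2534 and 2838 CPM to 329 and 183.5 CPM (-3.39 ± 0.34) and Mycth_82981 from 3675 and 4300 CPM to 991 and 1122 CPM (-1.92 ± 0.23). The last of the 5, Mycth_2297802, stood at 5445 and 5816 CPM against 2637 and 4277 CPM and missed the threshold (-0.70 ± 0.26, adjusted p = 0.0501, edgeR). It was called without X2 replicate 2 (-1.1, adjusted p = 0.0154), with DESeq2 (adjusted p = 0.0223), with RLE (0.046) or upper-quartile scaling (0.0376) and with the plate libraries alone (0.0486).

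X2 was also tested directly against cellobiose and against glucose with xylose, each with its own libraries. The counts cover all tested genes, whether or not they were called against no carbon. They do not give the share of the changes above that another sugar would also produce. Against cellobiose, 1649 genes were higher (19.2%) and 1564 lower (18.3%) with xylobiose, together 37.5%. Upper-quartile scaling turned that split to 1474 higher and 1762 lower. Against glucose with xylose, 1718 were higher (20.1%) and 1559 lower (18.2%), together 38.3%. The same scaling moved the median of all genes in the latter comparison to -0.11 and turned its split to 1441 higher and 1902 lower. These comparisons and that with no carbon share the X2 libraries. Leaving out single libraries moved the first count from 3213 to 1955 without X2 replicate 2, 1995 without G2 replicate 1 and 1525 without G2 replicate 2. The second moved from 3277 to 1991 without GX replicate 1 and 1852 without GX replicate 2.

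The xylanase loci were higher with xylobiose than with either alternative. Mycth_89603 stood at 11.2 and 12.8 CPM with cellobiose and at 16.6 and 10.6 CPM with glucose and xylose, against 5725 and 12640 CPM with xylobiose (9.57 ± 0.60 and 9.40 ± 0.60). The other 3 loci were higher by 3.29 to 8.32 than with cellobiose and by 4.36 to 8.11 than with glucose and xylose. The monosaccharide xylose, given as 1% beside glucose, was thus not accompanied by xylanase transcripts near the xylobiose level. Whether xylose alone would be was not tested. Mycth_96047 differed from the xylanase loci in this respect. It stood at 68.7 and 68.6 CPM with glucose and xylose, between 3.36 and 2.999 CPM without carbon and 535.5 and 890 CPM with xylobiose (X2 versus GX 3.38 ± 0.30, adjusted p = 1.23e-05, edgeR).

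For cdt-2 the order of group means was xylobiose (2338 CPM), cellobiose (252.6 CPM), no carbon (103 CPM) and glucose with xylose (37.4 CPM). It was higher with xylobiose than with cellobiose by 3.21 ± 0.42 and than with glucose and xylose by 5.97 ± 0.48. With xylobiose, 8 of the 12 loci for cellulases and LPMOs stood lower than with cellobiose, and 1, LPMO9B, stood higher. Over all tested genes, the shares were 18.3% lower and 19.2% higher. The LPMO9B difference of 2.37 was 1.23 without X2 replicate 2. Among the 8, LPMO9A was not called without either G2 library (adjusted p = 0.113 and 0.0546, edgeR) or without X2 replicate 1 (0.135). For LPMO9E, also among them, the call was lost on leaving out G2 replicate 1 (-1.23, adjusted p = 0.116) or X2 replicate 2 (0.0777). Against glucose with xylose, 6 of the 12 were higher and 0 lower, beside 20.1% and 18.2% of all tested genes. Among the 6 was cbh-1 at 3.69 ± 0.62 (39.9 and 58.8 CPM in the GX libraries). Of those 6, cbh-2 (1.57) and eg-45 (1.22) were not called without X2 replicate 2, where they stood at 0.66 and 0.41, nor on leaving out GX replicate 1 (adjusted p = 0.0732 and 0.127, edgeR) or the second GX library (0.092 and 0.0851). The fit of the X2 and GX libraries alone lost both as well (0.061 and 0.108), and the plate libraries alone lost eg-45 (0.0515). Another of the 6, LPMO9H, was higher by 4.18, or by 2.59 without X2 replicate 2. For eg-2, eg-1, alp-1 and glt-1, which rose with xylobiose, no difference from glucose with xylose was called (0.07, 0.21, 0.18 and -0.15, with 95% intervals that lay between -1.32 and 1.28).

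Among the genes lowered by xylobiose, some also differed from the other sugars and some did not. Mycth_61507 was lower with xylobiose than with cellobiose by -2.42 ± 0.20 and than with glucose and xylose by -2.35 ± 0.20, with means of 2061 and 1971 CPM in those groups. Mycth_2307990 stood at 13.2 and 8.44 CPM with cellobiose, where no difference from xylobiose was called (0.10, 95% interval -0.93 to 1.13), and at 49.7 and 131 CPM with glucose and xylose (-2.97 ± 0.49). For Mycth_2314451 no difference from cellobiose (-0.25) or from glucose with xylose (-0.27) was called.

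The effect of xylobiose can also be read by setting G2X2 against G2, whose levels come from libraries outside the comparison with no carbon. Filter, scaling and spread came from the same fit to all 14 libraries, so the calls of both comparisons are not independent. G2X2 held 2% xylobiose on top of 2% cellobiose, so xylobiose cannot be told apart here from a larger amount of sugar. Adding xylobiose to cellobiose raised 705 genes (8.23%) and lowered 603 (7.04%), together 15.3%. Upper-quartile scaling turned this split to 544 higher and 745 lower. The count of 1308 fell to 712 or 409 on leaving out G2 replicate 1 or 2, and to 798 or 817 on leaving out G2X2 replicate 1 or 2. Of the 1640 genes that rose with xylobiose alone, 361 also rose here. They made up 22% of the first list and 51.2% of the second, while 91, or 5.55% of the first list, were called lower. Of the 1668 genes that fell with xylobiose alone, 181 also fell, which was 10.9% of that list and 30.0% of the 603, and 37 were called higher. In total, 542 genes were called the same way in both comparisons. Leaving out G2 replicate 1, G2 replicate 2 or G2X2 replicate 2 gave 307, 188 or 331 such genes.

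Genes with larger changes without cellobiose were called the same way more often, while the share that kept its sign did not rise steadily with size. Of the 34 genes that had risen by at least 4, 16 were called higher with cellobiose present and 29 had a positive change, with a median of 1.78 against their 5.36 without cellobiose. Of the 726 that had risen by 1 to 2, 175 were called higher (24.1%) and 550 had a positive change, with a median of 0.40. Of the 244 that had risen by 2 to 4, 83 were called higher (34.0%) and 70.5% had a positive change. Among falls, 10.6% of those of 1 to 2, 17.5% of those of 2 to 4 and 5 of the 24 of at least 4 were called lower again, and 70.6%, 84.6% and 75.0% kept their sign. Over all tested genes 51.8% had a positive change, with a median of 0.02. Medians were smaller in size with cellobiose than without it for each band of size and each direction. The genes were banded on the first comparison, so part of that shrinkage comes with the banding. A direct test of whether the effect of xylobiose differed with and without cellobiose called 1549 genes (18.1%), with the effect higher in the presence of cellobiose for 735 (8.58%) and lower for 814 (9.5%). That count was 930 or 778 without G2 replicate 1 or 2, 971 without G2X2 replicate 1 and 804 with the tested groups alone. In this test the presence of cellobiose cannot be told apart from a larger amount of sugar.

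All 4 xylanase loci rose when xylobiose was added to cellobiose, beside 8.23% of all tested genes. Mycth_112050 reached 658 and 808 CPM in the mixture, from 10.7 and 6.50 CPM with cellobiose (6.41 ± 0.49), beside 410 and 1192 CPM with xylobiose alone. Mycth_89603 reached 456 and 637 CPM (5.50 ± 0.51), below both libraries with xylobiose alone. Mycth_2066457 rose to 454 and 662 CPM (7.45 ± 0.57), Mycth_96047 to 250 and 164 CPM (5.03 ± 0.33) and Mycth_116553 to 430 and 589 CPM (3.74 ± 0.30). Mycth_49700 did not follow. It stood at 2.29 and 3.62 CPM in the mixture and at 2.43 and 0.857 CPM with cellobiose (0.85 ± 0.52, adjusted p = 0.292, edgeR). Mycth_61507 fell again, from a mean of 2061 ± 67.7 CPM to 160 ± 17.8 CPM (SD, n = 2; -3.69 ± 0.21, adjusted p = 2.23e-06, edgeR). For gh1-1, alp-1 and glt-1 no change on adding xylobiose was called (0.02, -0.47 and -1.60).

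**Figure D4:**
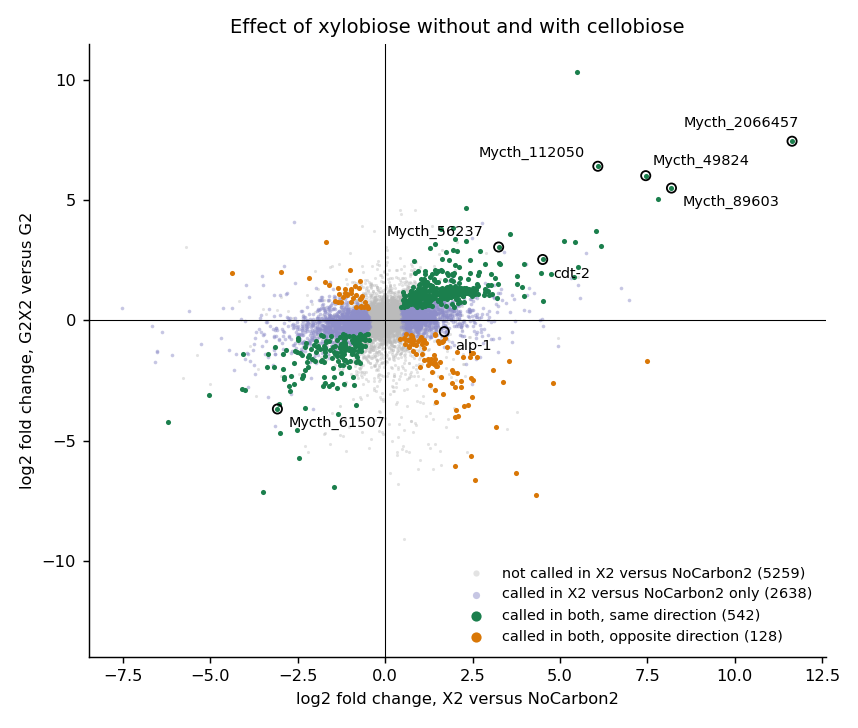
Log2 fold change of each tested gene with xylobiose against no carbon (horizontal axis) and with xylobiose added to cellobiose (vertical axis). The 2 comparisons set different libraries against each other, but their spread was estimated in the same fit to all 14 libraries. Green points, 542 genes, were called in both in the same direction, orange points in opposite directions, violet points only on the horizontal axis and grey points not on it. The 4 circled xylanase loci, cdt-2 and Mycth_2066457 lie high on both axes.

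Called genes had chromosomal neighbours called in the same direction somewhat more often than tested genes at large. Gene order was taken from the NCBI reference for assembly ASM22609v1, in which 9087 of the 9110 identifiers were found. Among the tested direct neighbours of genes called higher, 25.9% were called higher and 15.2% lower, beside 19.4% and 19.5% among the neighbours of all tested genes. Among those of genes called lower, 24.3% were called lower and 15.2% higher. The strand setting of the counting is not given in the sources used here, so reads of overlapping neighbours may have been shared between them. Most calls stood alone, and the longest unbroken runs of neighbours called in 1 direction held 7 genes. There were 3 such runs, 2 of them higher.

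The run with the largest changes went from Mycth_40734 to Mycth_2299794, and its 7 members rose by 1.75 to 7.49. Mycth_112805, its member with the largest change, went from 5 and 0 reads without carbon to 361 and 272 reads with xylobiose (0.205 and 0 CPM against 19.6 and 18.4 CPM). Its fitted change of 7.49 ± 0.71 was 11.7 without NoCarbon2 replicate 1 and depends on a group close to 0 reads. Mycth_109499 went from 1.19 and 0.701 CPM to 23.4 and 35.1 CPM (4.95 ± 0.52). Mycth_2299794, at the end of the run, was abundant throughout, with means of 198 CPM without carbon and 665 CPM with xylobiose. The 7 calls of this run against no carbon held under every alternative run. Against cellobiose, all members but Mycth_104717 were called higher with xylobiose (1.08 to 2.43). Against glucose with xylose, Mycth_2299794 alone was called higher (1.79) and Mycth_104717 was called lower (-1.17). The others were not called there (-0.86 to 0.428). Adding xylobiose to cellobiose lowered Mycth_40734, Mycth_112805 and Mycth_104717 (-2.08, -1.7 and -1.32) and raised Mycth_59137 (1.39).

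The second run of higher genes, from Mycth_2306185 to Mycth_82772, rose by 1.39 to 3.16. Of its 7 members, 6 were lower with xylobiose than with cellobiose and than with glucose and xylose, the exception being Mycth_2306185. Mycth_82782 had the highest level of the run, with means of 133 CPM without carbon and 819 CPM with xylobiose. The run rested partly on X2 replicate 1: without it, Mycth_2064854, Mycth_108317, Mycth_69746 and Mycth_82772 were not called (adjusted p = 0.112, 0.0603, 0.405 and 0.398, edgeR). Mycth_11658 rose by 2.91, or by 1.53 without that library. Without NoCarbon2 replicate 2, Mycth_2064854, Mycth_69746 and Mycth_82772 were not called either (adjusted p = 0.0898, 0.104 and 0.172). A fit of the X2 and NoCarbon2 libraries alone lost Mycth_2064854 (0.0544) and Mycth_82772 (0.082), and Mycth_82772, at 2.09, rose by 3.48 without NoCarbon2 replicate 1. The run of lower genes, from Mycth_2311890 to Mycth_2311901, fell by -0.68 to -1.49. Without NoCarbon2 replicate 2, the member Mycth_2311893 alone was still called (the other 6 had adjusted p of 0.0603 to 0.388, edgeR), as in the fit of the X2 and NoCarbon2 libraries alone. Without X2 replicate 2, Mycth_2311893 and Mycth_2311897 were the members still called. Mycth_2311890 was also lost without NoCarbon2 replicate 1 (adjusted p = 0.0819), and Mycth_2311897 without X2 replicate 1 (0.159).

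**Figure D5:**
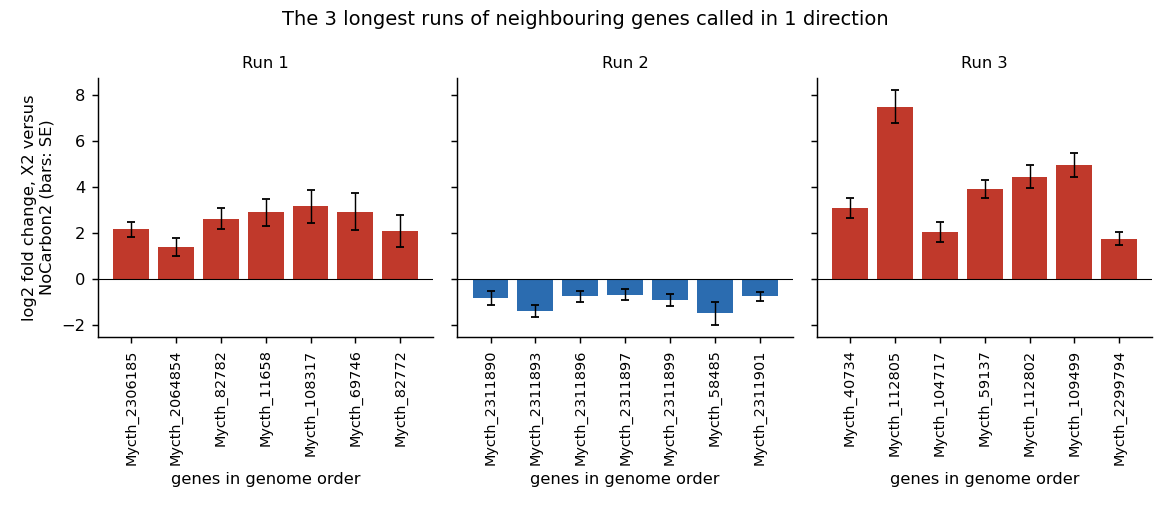
Log2 fold change with xylobiose against no carbon, with standard error bars, for the members of the 3 longest runs of neighbouring genes called in 1 direction, in genome order. Members of the run at the right rose by 1.75 to 7.49, those at the left by 1.39 to 3.16, and those in the middle fell by -0.68 to -1.49.

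The X2 libraries differed from each other. Of the 26 listed loci, 22 were higher in X2 replicate 2 than in replicate 1, among them loci that were not called and clr-1, which was called lower. The 705 and 603 genes called on adding xylobiose to cellobiose were picked on levels in other libraries, with a spread estimated over all libraries. Of the 705 that rose, 57.3% were higher in X2 replicate 2, as were 36.3% of the 603 that fell and 48.3% of all tested genes. The median log2 ratio of replicate 2 to replicate 1 was 0.08 for the 705 genes, -0.18 for the 603 and -0.02 for all tested genes (pseudocount 0.5 CPM). In the run of higher genes from Mycth_2306185 to Mycth_82772, in contrast, 4 of the 7 calls were lost without replicate 1. The 10 most abundant genes took 8.51% of counts in X2 replicate 1 and 12.4% in replicate 2. Without X2 replicate 2, 2367 genes were called against no carbon, of which 2181 were among the 3308. Without X2 replicate 1, 3375 were called, of which 2698 were among them. The part of this difference between replicates in the listed calls was not tested beyond these values.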

How the data were processed

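The authors deposited read counts per gene, raw and in 1 column per library. TopHat2 2.0.8b and HTSeq 0.13.5 appear per the submitters' processing notes, with build, gene models and strandedness not given in the sources used here. Titles gave groups and replicate numbers; columns named AX were taken as the titles' XA. Of 9110 genes, filterByExpr of edgeR 4.0.16 (R 4.3.3, minimum count 10) kept 8567. One quasi-likelihood model of 7 group means was fitted to all 14 libraries (17992946 to 25254924 counts), with TMM scaling, robust dispersion and 7 residual degrees of freedom. Tests were two-sided and the model was tested on simulated data. The simulation gave each gene the same spread in all groups. It therefore could not show whether intervals are too narrow for X2 and NoCarbon2. Intervals are at 95%.

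Named genes were the 26 listed loci, the 5 largest gains and losses in mean CPM and the longest runs of neighbours. Also named were the 2 largest rises and 2 largest falls among genes with at least 20 CPM and no overlap. All changes of at least 6 within those limits were added after seeing the data. Members and lists were chosen with earlier results of these data known. Alternatives were RLE and upper-quartile scaling, no filter, DESeq2 1.42.0, plate libraries alone, the tested groups alone, a replicate block and single libraries left out.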

Additional observations from a re-analysis of the deposited data

Results flagged for a closer look

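For 22 of the 43 genes named by list, by fold or by CPM, the effect of xylobiose differed between mycelium with and without cellobiose, by an interaction test in the same edgeR fit (18.1% of all tested genes were called). Among the 26 listed loci, 1 was called with a positive and 8 with a negative difference, beside 8.58% and 9.5% of all tested genes. The listed loci were chosen with earlier results of these data known, so these counts are a description and not a test. The other genes were picked for extreme changes against no carbon, and that same change is subtracted in the difference, so their values are a description and their number supports nothing. The value is the log2 fold change on adding xylobiose to cellobiose minus that against no carbon, so a negative value means a lower estimate with cellobiose present. Cultures with cellobiose also held more sugar in all, and the 2 cannot be told apart. For glt-1, eg-1, cre-1 and alp-1 the estimate with cellobiose was itself negative and not called (-1.60, -0.94, -0.46 and -0.47). Among the listed loci it was -2.69 for the xylanase locus Mycth_89603, -1.98 for cdt-2, -4.18 for glt-1, -3.74 for eg-1, -1.61 for eg-2, -2.76 for LPMO9B, -1.09 for cre-1 and -2.16 for alp-1. LPMO9A, with 3.74, was the sole listed locus called with a positive difference. Among the largest rises it was -4.19 for Mycth_2066457, -2.77 for Mycth_96047, -6.11 for Mycth_49700, -3.08 for Mycth_89872 and -2.29 for Mycth_116553. Among the largest gains it was -1.39 for Mycth_2298136, -3.19 for Mycth_2311855 and -2.15 for Mycth_112322. Among genes lowered by xylobiose it was 5.26 for Mycth_2307990, 1.58 for Mycth_2314451, 1.57 for Mycth_82981 and 1.45 for Mycth_2313040, and for Mycth_2297802, not called against no carbon, 1.20. The interaction calls of eg-2, LPMO9B, cdt-2, cre-1, Mycth_2314451, Mycth_2313040, Mycth_2297802 and Mycth_2298136 were lost on leaving out at least 1 single library.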

How the results depend on the processing

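With 2 libraries a group, single libraries and the estimate of spread moved the results most. Against no carbon, RLE or upper-quartile scaling, no filter, plate libraries alone and DESeq2 called 2936 to 3610 genes, and single libraries left out 2367 to 3409, beside 3308. The fit of the contrasted groups alone called 1506 (788 higher, 718 lower), with 3 cellulase and LPMO loci in place of 5 and 804 interaction calls in place of 1549. The replicate block called 3153 genes against no carbon, 3130 of them among the 3308; same-numbered X2 and NoCarbon2 libraries deviated together at r = 0.206, but the labels tie the numbers to no shared batch, so they were not taken to pair libraries.

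Leaving out single libraries gave 3 to 7 cellulase and LPMO loci called higher, 1525 to 3293 calls against cellobiose, 1852 to 3362 against glucose with xylose, 409 to 817 on adding xylobiose to cellobiose, 188 to 591 genes called the same way with and without cellobiose, and 778 to 1986 interaction calls. Changes in sign against no carbon were seen for 8 loci, all of them not called. On leaving out single libraries their changes ran from -0.155 to 1.29 for cbh-2, -0.957 to 0.288 for eg-45, -0.294 to 1.61 for cdh, -0.2 to 1.9 for LPMO9J, -2.32 to 0.0197 for cdt-1, -0.537 to 0.257 for lat-1, -0.431 to 0.372 for gh1-1 and -1.15 to 0.594 for clr-2. For gh1-1 the change was also -0.0246 with upper-quartile scaling and -0.0268 with plate libraries alone. For clr-2 it was -0.00283 with RLE scaling, -0.0413 with upper-quartile scaling and -0.0499 with plate libraries alone. Apart from the settings' own fewer samples, the cause was not tested. The alternatives for single genes outside the comparison with no carbon, and the split of calls by scaling, were chosen after seeing the data. Depth limits the genes with few reads most.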
